A study of Mus musculus with 89 samples.

Results

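Nr0b1 (also called Dax1; ENSMUSG00000025056) is 1 of 54146 gene rows in the count and TPM tables of this study of mouse embryonic stem cells (ESCs), and it was followed here across 8 groups of RNA-seq libraries. It was selected on its pattern over these same groups, that is, on its level in each group and on how far its level after a double loss departs from the single losses combined. Its levels and differences are therefore a description, given with their errors and without a test. Every library came from EKOiE cells, ESCs without endogenous Esrrb in which Esrrb is supplied by a transgene that doxycycline (Dox) induces, so the controls too depend on the transgene. The states were +E+N (EKOiE, Dox at 1 µg/ml), −E (EKOiE, Dox removed for 2 days), −N (EKOiE NrKO, in which exon 4 of Nr5a2 is disrupted on both alleles, with Dox) and −E−N (EKOiE NrKO, Dox removed for 2 days). Each state was grown in medium with fetal calf serum and the cytokine LIF (FCS/LIF, n = 2) or with LIF and inhibitors of ERK signalling and of GSK3 (2i/LIF, n = 3). The labels do not give the NrKO clone, and the NrKO line cannot be told apart from the loss of Nr5a2, nor the medium from its culture batch. The question asked of the design was how far Esrrb and Nr5a2 can stand in for each other.

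Nr0b1 is an unusual nuclear receptor without the DNA-binding domain of its relatives, and it binds other nuclear receptors, foremost those of the Nr5a group, and represses their activity. It is best known from the adrenal gland and the gonads, where it opposes Nr5a1 in the control of steroid synthesis. In ESCs it is part of the network of factors around Oct4 (Pou5f1) and Nanog. Esrrb and Nr5a2 are orphan nuclear receptors that each bind DNA as single molecules, at nearly the same sequence.

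In mm10, Nr0b1 lies on the plus strand at chrX:86191764-86195947, a span of 4184 bp. Its transcript (GENCODE vM21) has 2 exons, of 1211 and 597 bp, separated by an intron of 2376 bp, with untranslated ends of 37 and 355 bp around 472 codons. In the annotation, 0 other genes overlap it, so its reads compete with those of no neighbour. The bases before its start are shown because they hold a core of the Esrrb and Nr5a2 motif. The stretch is chrX:86191525-86191763 of GRCm38.p6, plus strand, from the RefSeq promoter table, and the capitals mark AGGTCA, the core of TCAAGGTCA.
Nr0b1 promoter: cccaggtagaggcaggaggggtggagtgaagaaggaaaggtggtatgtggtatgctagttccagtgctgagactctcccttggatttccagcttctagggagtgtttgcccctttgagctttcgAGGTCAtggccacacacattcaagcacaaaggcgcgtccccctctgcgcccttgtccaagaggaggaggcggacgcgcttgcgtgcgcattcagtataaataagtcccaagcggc
The core lies 115 bases before the annotated start (chrX:86191649-86191654). Read over 9 bases it is TCGAGGTCA, which differs from TCAAGGTCA by A3G, and overlaps TCATGGCCA, which differs from TCAAGGCCA by A4T (positions counted from 1 at the 5′ end of the motif). Neither 9-base motif is present without a mismatch in this stretch. On either strand, AGGTCA was found in 13.5% of 32851 RefSeq promoters, and TCAAGGTCA with at most 1 mismatch in 6.12%.

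From 10000 bases before to 5000 bases after the start, each exact motif occurs once, and both sites are shown with 6 flanking bases on either side. The capitals mark the motif, TCAAGGTCA on the plus strand at chrX:86188279-86188287 and TCAAGGCCA on the minus strand at chrX:86182094-86182102.
3485 bases before the start: agaagtTCAAGGTCAtccttt
9670 bases before the start: cacactTCAAGGCCAttaact
Windows of this length around 21938 protein-coding genes held TCAAGGTCA in 34.2%, TCAAGGCCA in 55.9% and both in 21.6%. A match of letters is not a bound site, and binding of Esrrb or Nr5a2 at Nr0b1 was not analysed here.

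Depth ranged from 36514172 to 45443379 estimated counts per FCS/LIF library and from 26653035 to 32526534 per 2i/LIF library, of which Nr0b1 made up between 1.77e-05% and 0.00521%. Esrrb stood at 66.1 and 75.3 CPM (counts scaled to library size) in −E against 279 and 362 in +E+N in FCS/LIF, but between 374 and 440 against between 505 and 600 in 2i/LIF. Nr5a2 stood at 26.0 and 27.5 CPM in −N against 37.1 and 41.0 in +E+N in FCS/LIF, and its ranges in 2i/LIF overlapped (between 62.9 and 76.7 against between 61.2 and 78.6). Counts over whole genes do not measure the loss of either protein. The study found transcript from the disrupted Nr5a2 alleles in NrKO cells. For Esrrb, the origin of the counted transcript, from the transgene or the knocked-out gene, was not examined here. The 6 markers of ESCs (Pou5f1, Sox2, Nanog, Zfp42, Dppa5a, Tdgf1) were all above 1 TPM in every group, and in −E−N their summed level kept 60.8% (FCS/LIF) and 44.6% (2i/LIF) of that in +E+N.

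In the control state Nr0b1 was well expressed, and in −E−N it was low in both media, with counts in 2i/LIF close to the limit of detection. In FCS/LIF, the +E+N libraries held 2023 and 2114 counts, or 38.56 and 37.16 TPM (a level corrected for transcript length). The −N libraries held 1687 and 1471 counts, or 30.62 and 24.91 TPM, and the −E libraries 381 and 305 counts, or 7.17 and 5.85 TPM. The −E−N libraries held 33 and 35 counts, or 0.73 and 0.71 TPM. The libraries of these 4 states did not overlap, and −E−N was the lowest in both replicates.

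In 2i/LIF, Nr0b1 reached 31.36, 20.04 and 20.99 TPM in the +E+N libraries (1391, 735 and 807 counts). It stood at 9.05, 9.82 and 10.09 TPM in −N (360, 362 and 364 counts) and at 8.36, 3.90 and 4.59 TPM in −E (353, 146 and 182 counts). In −E−N, the libraries held 18, 5 and 6 counts, or 0.43, 0.13 and 0.15 TPM. Here too the 4 states did not overlap, although the highest −E library lay just under the lowest −N library. Counting error is large at the bottom of this range. The exact 95% Poisson interval was 10.7 to 28.4 for 18 counts, 1.62 to 11.7 for 5 counts and 2.2 to 13.1 for 6 counts, and it covers counting error only.

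**Figure D1:**
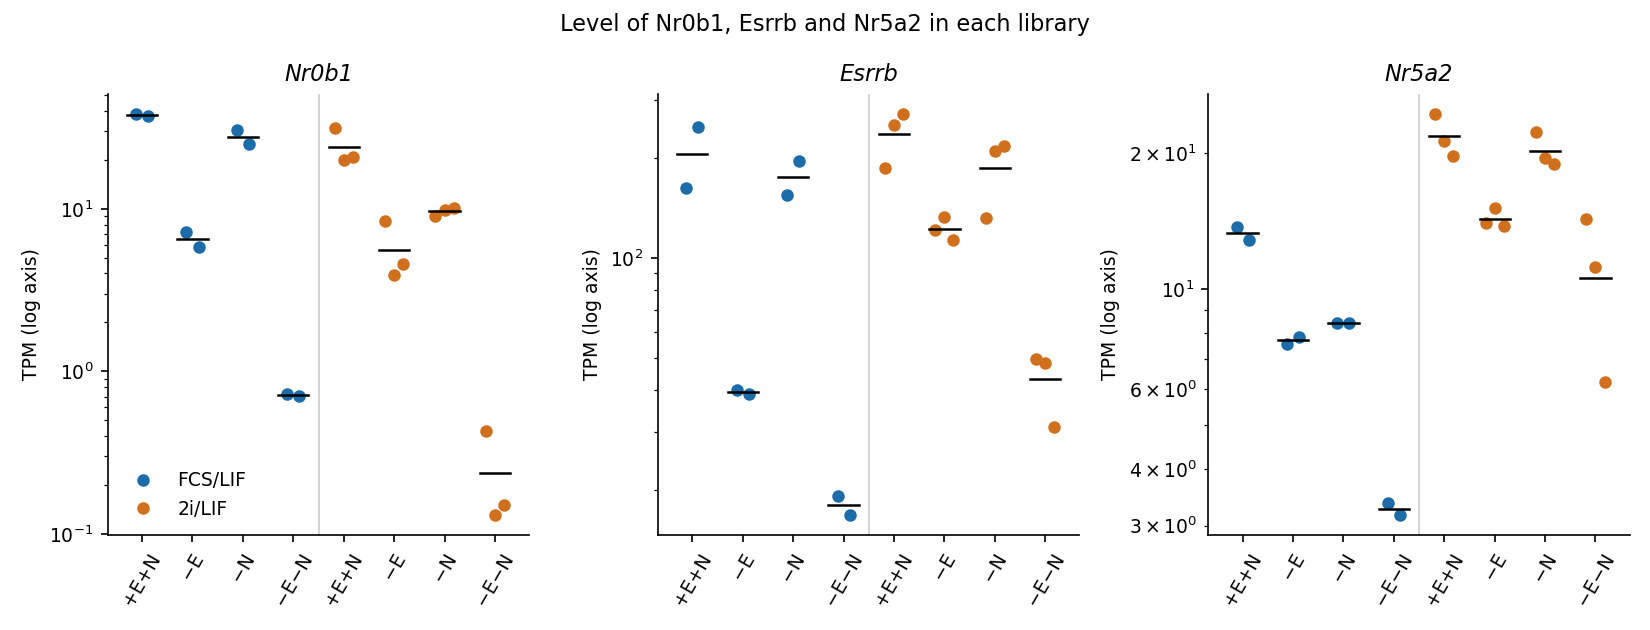
TPM (log axis) of Nr0b1, Esrrb and Nr5a2 in each of the 20 libraries, with 1 point per library, in replicate order from left to right, and a bar at the mean of each state and medium. Nr0b1 ran from 38.56 TPM in +E+N in FCS/LIF to 0.13 TPM in −E−N in 2i/LIF, a wider range than either targeted gene.

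Ordered by mean TPM over all 8 groups, Nr0b1 was highest in +E+N in FCS/LIF (37.9 ± 0.99, SD, n = 2). It was followed by −N in FCS/LIF (27.8 ± 4.04, n = 2) and +E+N in 2i/LIF (24.1 ± 6.28, n = 3), whose libraries overlapped. Next came −N in 2i/LIF (9.65 ± 0.54, n = 3), and then −E in FCS/LIF (6.51 ± 0.933, n = 2) and −E in 2i/LIF (5.62 ± 2.4, n = 3), which also overlapped. The lowest were −E−N in FCS/LIF (0.72 ± 0.0141, n = 2) and −E−N in 2i/LIF (0.237 ± 0.168, n = 3). The largest step between neighbours in this order, 7.81 times, lay between −E in 2i/LIF and −E−N in FCS/LIF. By the same means, 5.82% of all gene rows were more abundant than Nr0b1 in +E+N in FCS/LIF, and 26.2% in −E−N. In 2i/LIF these shares were 8.5% and 30.8%.

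Loss of Esrrb left little of the Nr0b1 transcript, and loss of Nr5a2 left most of it in FCS/LIF but well under the control level in 2i/LIF. In FCS/LIF, Nr0b1 was at 52.1 ± 3.26 CPM in +E+N and 8.22 ± 1.2 in −E (SD, n = 2), a log2 fold change of -2.66 (SE 0.138), or 6.33 times lower. In −N it was at 36.7 ± 6.17 CPM (log2 fold change -0.51, SE 0.124), with 70.5% of the control level remaining against 15.8% in −E. In 2i/LIF, the control stood at 32.8 ± 9.48 CPM, −E at 7.97 ± 4.01 and −N at 13.1 ± 0.321 (SD, n = 3). Loss of Esrrb gave a log2 fold change of -2.04 (SE 0.314) and loss of Nr5a2 one of -1.33 (SE 0.304), with 24.3% and 39.9% of the control level remaining. In both media, the estimate after loss of Esrrb alone was thus the larger of the single losses. In the 2i/LIF libraries numbered 1, however, the log2 differences were nearly equal, at -1.8 (−E) and -1.78 (−N). They were -2.39 and -1.04 in those numbered 2, and -2.17 and -1.05 in those numbered 3.

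After the double loss, 1.69% of the control level remained in FCS/LIF and 0.979% in 2i/LIF. Nr0b1 was at 0.879 ± 0.00175 CPM in −E−N in FCS/LIF (log2 fold change -5.88, SE 0.185, 59 times lower). In 2i/LIF it was at 0.322 ± 0.229 CPM (log2 fold change -6.64, SE 0.448, 99.5 times lower). The summed ESC markers kept 60.8% and 44.6% of their control level in the same libraries, a sum that Dppa5a and Pou5f1 dominate. Single markers varied. In FCS/LIF, Zfp42 went from a mean of 380 to 39.4 TPM, and Tdgf1 was at 275 and 281 TPM and was not called. In 2i/LIF, Tdgf1 fell by 1.98 on the log2 scale, from 334 to 83.2 TPM. The log2 fold change of Nr0b1 was more negative than that of each of the 6 in both media, which describes a gene chosen for this pattern. In bulk RNA, fewer cells that express a gene and less transcript per cell cannot be told apart. Calls of markers required an adjusted p under 0.01 by edgeR and a fold over 1.5. At these limits, 12.4% of all tested genes rose and 6.4% fell in −E−N in FCS/LIF. In 2i/LIF, 9.06% rose and 9.56% fell. Of 6 markers of trophectoderm, the outer cell layer of the early embryo, 6 rose in −E−N in FCS/LIF. In 2i/LIF, 4 rose, Elf5 was not tested, and Eomes fell by 1.94 on the log2 scale (adjusted p = 0.000327 by edgeR). The summed TPM of Cdx2, Eomes, Elf5, Gata3, Krt7 and Krt8 ran from 132 to 161 in +E+N and from 630 to 972 in −E−N in FCS/LIF, and from 9.07 to 12 and from 98.7 to 170 in 2i/LIF, with Krt8 the most abundant. Summed primitive endoderm markers in −E−N were at 204% of the control in FCS/LIF (24.3 to 26.6 TPM) and at 284% in 2i/LIF (6.18 to 8.27 TPM). In FCS/LIF only Dab2 was called, and it dominated the sum (from 5.01 to 17.7 TPM). In 2i/LIF Foxa2 and Pdgfra rose and Gata4 fell, with Foxa2 the most abundant in −E−N (from 0.52 to 4.04 TPM). Fibroblast markers summed to 616% of the control in FCS/LIF (2.88 to 3.65 TPM), where 4 of 5 tested rose, and to 194% in 2i/LIF (0.51 to 0.84 TPM), where 1 of 2 rose. The part of these cell types in the level of Nr0b1 was not tested.

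As a fold, the step that went with the loss of one receptor was larger when the other was absent. With Esrrb supplied, loss of Nr5a2 went with a level 1.42 times lower in FCS/LIF and 2.51 times lower in 2i/LIF. Without Esrrb (−E−N against −E), it went with a level 9.33 times lower in FCS/LIF (log2 fold change -3.22, SE 0.202) and 24.1 times lower in 2i/LIF (log2 fold change -4.59, SE 0.457). Loss of Esrrb went with a level 6.33 and 4.12 times lower when Nr5a2 was intact. In NrKO cells (−E−N against −N) the same loss went with a level 41.6 times lower in FCS/LIF (log2 fold change -5.38, SE 0.186) and 39.7 times lower in 2i/LIF (log2 fold change -5.31, SE 0.45). In CPM the steps were instead smaller without the other receptor. In FCS/LIF, loss of Nr5a2 went from 52.1 to 36.7 CPM with Esrrb, and from 8.22 to 0.879 CPM without it.

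On the log2 scale, where 2 independent effects add up (their folds multiply), the single losses of FCS/LIF sum to -3.17 and the double loss measured -5.88. The departure from additivity was -2.72 (SE 0.244). From the CPM means, the product of the single losses predicts 5.79 CPM in −E−N, and the measured level was 6.59 times lower than that. In 2i/LIF the single losses sum to -3.37 against -6.64 measured, a departure of -3.27 (SE 0.569). The predicted level of 3.18 CPM was 9.9 times the measured one. Within the sets of 2i/LIF libraries that share a replicate number, the departure was -2.65, -3.84 and -3.88. A fit with a replicate block gave -3.30 (SE 0.4).

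**Figure D2:**
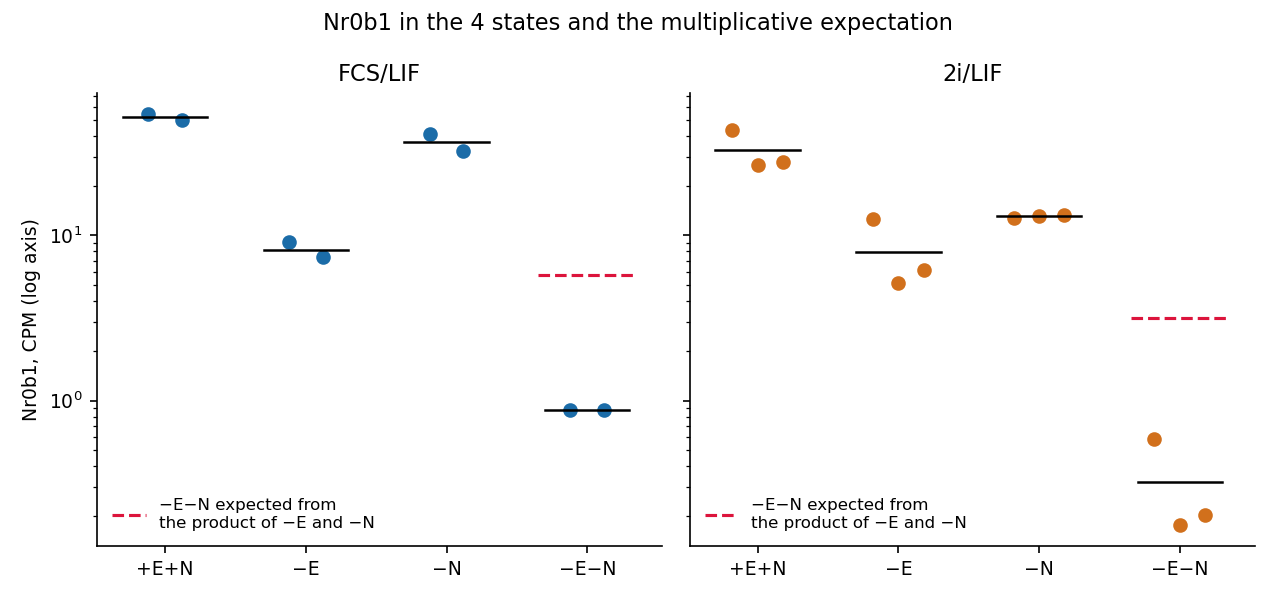
Nr0b1 in CPM (log axis) in the 4 states of FCS/LIF (left) and 2i/LIF (right), with 1 point per library, a black bar at each mean and a dashed red line at the −E−N level that the product of the −E and −N losses gives. The −E−N libraries lie below that line in both media, at 0.877 and 0.88 CPM against 5.79 in FCS/LIF, and between 0.176 and 0.586 CPM against 3.18 in 2i/LIF.

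The sign of the departure belongs to the scale. If losses are instead added in CPM, the single losses of each medium sum to more than its whole control level, and the predicted −E−N level is below 0 (-7.16 CPM in FCS/LIF and -11.8 CPM in 2i/LIF). The measured level was 8.04 CPM (SE 5.01) and 12.1 CPM (SE 5.95) above these predictions. A level cannot be negative, so on the linear scale a lower −E−N level than predicted could not have been seen.

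Departures of this size were rare among the genes tested. In FCS/LIF, the departure lay within 1 log2 unit of 0 for 97.6% of 15636 genes (median 0.0207) and below -2 for 21 of them. In 2i/LIF, it lay within that range for 94.3% of 14355 genes (median 0.00344) and below -2 for 55. Counted from the lowest departure, among genes that averaged 100 counts or more, Nr0b1 held rank 4 of 12007 in FCS/LIF and rank 6 of 11141 in 2i/LIF. These ranks describe a gene chosen for this pattern.

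**Figure D3:**
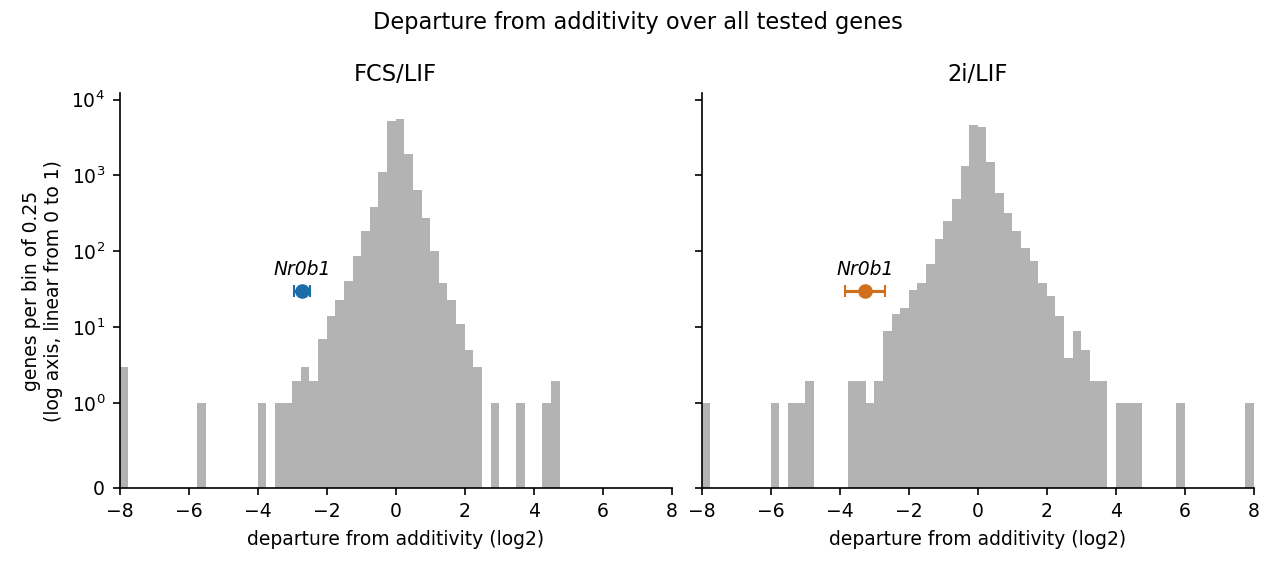
Number of genes (log axis, linear from 0 to 1) by their departure from additivity on the log2 scale, in bins of 0.25, for FCS/LIF (left) and 2i/LIF (right), with values beyond the axis placed in its outermost bins. Nr0b1 is marked with its SE at an arbitrary height, at -2.72 in FCS/LIF and -3.27 in 2i/LIF, in the sparse left tail.

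Differences of Nr0b1 between the media are also a description, and none was tested. In a fit of all 20 libraries, +E+N was 1.52 times lower in 2i/LIF than in FCS/LIF (log2 difference -0.60, SE 0.272). The response to loss of Nr5a2 was 0.84 higher in FCS/LIF, that is, the smaller reduction (SE 0.394), and the response to loss of Esrrb was 0.59 lower there (log2 difference -0.59, SE 0.406). The latter ranged from -0.86 to -0.10 when 1 library was left out, with -0.10 without −E replicate 1 of 2i/LIF. The step from −E to −E−N was 1.38 higher in FCS/LIF (SE 0.657), with a range from 0.89 (without −E replicate 1 of 2i/LIF) to 2.16 (without −E−N replicate 1 of 2i/LIF). The double loss differed by 0.79 (SE 0.648), the step from −N to −E−N by -0.05 (SE 0.851) and the departure by 0.55 (SE 0.764). Replicates were also less alike in 2i/LIF. The coefficient of variation of Nr0b1 in CPM was 28.9% for +E+N, 50.3% for −E, 71.3% for −E−N and 2.45% for −N. The library numbered 1 was the highest in +E+N, −E and −E−N, and the lowest in −N. Without the −E−N library numbered 1, the double loss in 2i/LIF was -7.41 and the departure -4.04 on the log2 scale, and with the libraries numbered 2 and 3 only they were -7.14 and -3.83.

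Genes that bear on Nr0b1 were tested beside it with edgeR (quasi-likelihood, p adjusted after Benjamini and Hochberg over all genes), and called at an adjusted p under 0.01 and a fold over 1.5 (for the departure, without a fold limit). As background, loss of Esrrb gave 2.53% of all tested genes called lower and 3.23% called higher in FCS/LIF, beside 1.11% and 0.439% in 2i/LIF. For loss of Nr5a2, 0.0959% were lower and 0.0767% higher in FCS/LIF, beside 2.04% and 1.61% in 2i/LIF. The double loss gave 6.4% lower and 12.4% higher in FCS/LIF, beside 9.56% and 9.06% in 2i/LIF. Called departures made up 0.032% (FCS/LIF) and 0.307% (2i/LIF) of genes. Of the 32 listed genes tested in FCS/LIF, 4 were called after loss of Esrrb, 0 after loss of Nr5a2, 9 after the double loss and 1 for the departure. In −N, 12 of them had an unadjusted p under 0.05, and DESeq2 called 1 (Zscan4a). Of the 31 tested in 2i/LIF, 0 were called in −E (7 at an unadjusted p under 0.05, 0 by DESeq2), 2 in −N, 13 after the double loss and 0 for the departure (6 at an unadjusted p under 0.05, and 3 by DESeq2, Nanog, Esrrb and Zfp42). A replicate block in the 2i/LIF fit brought these counts to 4 for −E, 6 for −N and 3 for the departure. The counts over all genes rose with the block as well. Of 14355 genes, 354 were then lower and 242 higher in −E (160 and 63 without the block), 613 lower and 502 higher in −N (293 and 231 without it), and 182 and 142 had a lower or higher departure (44 in all without it). The counts of listed genes include the manipulated genes. Esrrb and Nr5a2 were both called after the double loss in either medium, and in −E in FCS/LIF. The 13 called after the double loss in 2i/LIF also include all 6 Zscan4 genes, which are near-identical copies.

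Among the receptors related to Nr0b1 or to the factors removed, Esrra, Esrrb and Nr5a2 were expressed, while Nr0b2 (Shp, the closest relative of Nr0b1), Nr5a1 and Esrrg held between 0 and 10 counts in every library and were not tested. In −E−N, the manipulated genes fell, Esrrb by 3.39 (SE 0.143, adjusted p = 1.16e-06 by edgeR) and Nr5a2 by 1.99 on the log2 scale (SE 0.0901, adjusted p = 1.61e-06 by edgeR) in FCS/LIF. In 2i/LIF, Esrrb fell by 1.97 and Nr5a2 by 1.05 (adjusted p = 2.22e-06 and 0.00165 by edgeR). Both also fell in −E in FCS/LIF, by 2.18 and 0.98. Nr5a2 was not called in −E in 2i/LIF (log2 fold change -0.59, adjusted p = 0.129 by edgeR), but was with the replicate block (adjusted p = 0.00573). Esrra had log2 fold changes of 0.17 and 0.07 in −E−N, neither past the limits. Among the 4 expressed receptors of this list, Nr0b1 had the most negative log2 fold change in −E−N, which describes a gene chosen for this pattern.

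Of 8 factors described as acting on Nr0b1 in ESCs, 5 fell in −E−N in FCS/LIF and 4 in 2i/LIF, and 0 rose in either. Beside Esrrb and Nr5a2, Nanog fell by 1.30 in FCS/LIF (adjusted p = 3.88e-05 by edgeR) and by 1.37 in 2i/LIF (adjusted p = 5.61e-07 by edgeR). Sox2, the partner of Oct4 on DNA, fell by 1.2 and 0.88 on the log2 scale, and Pou5f1 by 0.65 in FCS/LIF (adjusted p = 0.000436 by edgeR), with -0.47 in 2i/LIF not past the limits (adjusted p = 0.011 by edgeR). Stat3, which carries the LIF signal, Ctnnb1 (β-catenin of the WNT pathway) and Tcf7l1, a repressor in that pathway, were not called in either medium (log2 fold changes from -0.11 to 0.32). Loss of Esrrb alone in FCS/LIF lowered Nanog, Esrrb and Nr5a2, and the other 5 factors were not called there. The call of Nanog in that comparison was lost without either −E library (adjusted p = 0.0137 and 0.0222 by edgeR). That of Pou5f1 in −E−N was lost, by its fold, without +E+N replicate 1 (-0.57) or −E−N replicate 2 (-0.56). The 8 had a median log2 fold change in −E−N of -0.93 (FCS/LIF) and -0.68 (2i/LIF), beside 0 and 0.0102 over all tested genes. These medians, and the counts of 5 and 4 that fell, include the manipulated genes Esrrb and Nr5a2.

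A list of 12 proteins from the interaction network of Nanog, Oct4 and Dax1 shares Nanog and Pou5f1 with the factors above. In −E−N, 5 of the 12 fell in FCS/LIF (Zfp42, Nanog, Rif1, Pou5f1 and Sall1), and in 2i/LIF Nanog and Zfp42 fell and Arid3b, a DNA-binding protein of the ARID family, rose by 0.69 (adjusted p = 5.64e-05 by edgeR). Zfp42 (Rex1), a marker of naive ESCs, fell by 3.44 in FCS/LIF (SE 0.0936) and by 1.12 in 2i/LIF (SE 0.111). It was the 1 listed gene with a called departure in FCS/LIF (-1.33, SE 0.121, adjusted p = 0.00572 by edgeR). Leaving out any of 7 of the 8 libraries ended that call, with adjusted p by edgeR between 0.0104 and 0.0731. In 2i/LIF, the departures of Zfp42 (-0.83), Nanog (-0.79) and Esrrb (-1.28) were not past the limit in the fit without the block (adjusted p = 0.0243, 0.0149 and 0.0186 by edgeR), and were with it (adjusted p = 0.00123, 0.00188 and 0.00244). The log2 departures of Nr0b1, -2.72 and -3.27, were more negative than each of these, which describes a gene chosen for its departure.

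**Figure D4:**
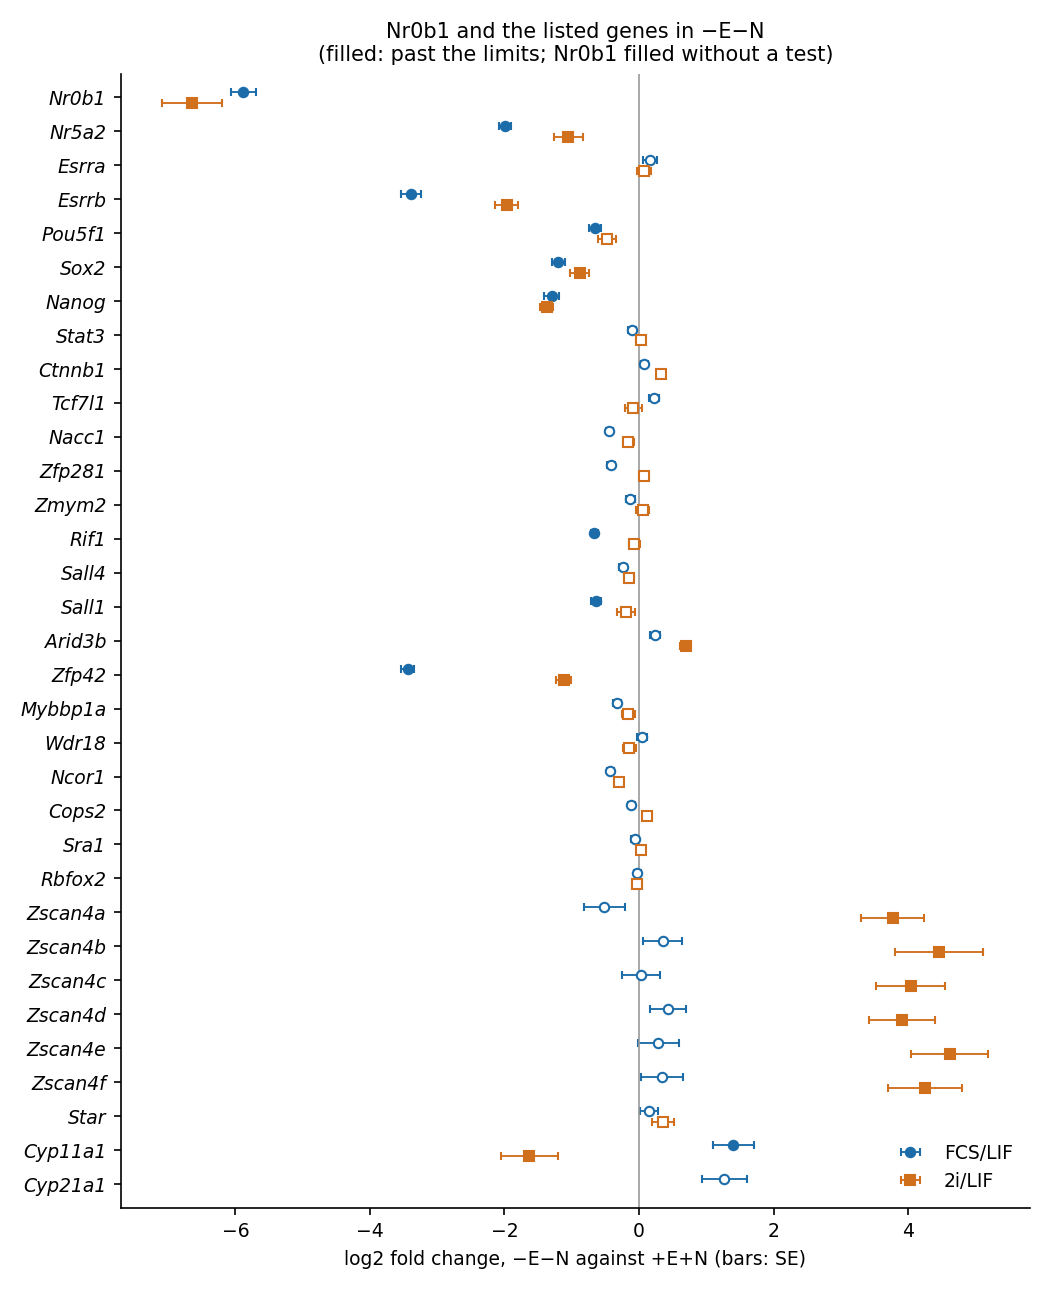
Log2 fold change in −E−N against +E+N with its SE for Nr0b1 and the listed genes that passed the filter, in FCS/LIF (circles) and 2i/LIF (squares). Filled symbols were past the limits, and Nr0b1, which was not tested, lies farthest to the left at -5.88 and -6.64.

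Of the cofactors through which Dax1 is described to act, Ncor1, Cops2 (Alien), the RNA coactivator Sra1 and the RNA-binding protein Rbfox2, were all expressed, and 0 of these 4 were called in any comparison by edgeR or DESeq2. At an unadjusted p under 0.05, 1 passed in −E, 1 in −E−N and 1 for the departure in FCS/LIF, and in 2i/LIF 2 passed in −E and 1 in −E−N. The most negative log2 fold change in −E−N was that of Ncor1, a corepressor of nuclear receptors (-0.43 in FCS/LIF and -0.30 in 2i/LIF, adjusted p = 0.000368 and 0.00364 by edgeR), which was not past the fold limit.

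Targets that Nr5a receptors drive in steroid-producing tissue, and that Dax1 is described to repress there, were mostly below the filter. Of 10, 3 passed it in FCS/LIF and 2 in 2i/LIF. Cyp11a1, which makes pregnenolone from cholesterol, rose by 1.40 in −E−N in FCS/LIF (adjusted p = 0.0052 by edgeR) and fell by 1.63 in 2i/LIF (adjusted p = 0.00821 by edgeR), from control levels of 1.63 ± 0.00707 and 1.24 ± 0.778 TPM. In FCS/LIF the call was lost without either +E+N library or without −E−N replicate 2 (adjusted p by edgeR between 0.0236 and 0.0454). In 2i/LIF the call was lost without any 1 of 10 of the 12 libraries (adjusted p by edgeR between 0.0101 and 0.0466). Star, the cholesterol carrier of mitochondria, was not called. Mc2r, a defining marker of adrenal cortex, was at 0 counts in every library.

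The Zscan4 genes, active in a rare state of ESC cultures that resembles the embryo at the stage of 2 cells, were listed because Dax1 has been described beside them. In 2i/LIF, the double loss went with a rise of 6 of 6, by 3.77 to 4.62 on the log2 scale, while Nr0b1 measured -6.64. In −N, Zscan4a and Zscan4e rose (2.5 and 2.83), and the other 4 passed with the replicate block (log2 fold changes between 2.03 and 2.41). Both calls were lost without any of 5 libraries (+E+N replicates 1, 2 and 3, −N replicates 2 and 3), with adjusted p by edgeR between 0.0115 and 0.0397, and that of Zscan4e also without −E replicate 2. They were also absent with only the libraries numbered 2 and 3 (adjusted p = 0.0208 and 0.0226 by edgeR). In FCS/LIF, 0 of 6 were called in −E−N (0 at an unadjusted p under 0.05, 0 by DESeq2). In −E in FCS/LIF, 0 of 6 were called, with 6 at an unadjusted p under 0.05 and 3 called by DESeq2 (Zscan4a, Zscan4b and Zscan4d). With the replicate block, Zscan4a, Zscan4b, Zscan4d, Zscan4e and Zscan4f were called higher there (adjusted p by edgeR between 0.000901 and 0.0061). The members are near-identical copies whose shared reads are divided by estimation, so single members are uncertain.

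No gene tested around Nr0b1 on chromosome X had a log2 fold change below -0.77 in −E−N. Of 28 annotated genes within 1000000 bases, 4 passed the filter in each medium. In −E−N in FCS/LIF, Fthl17a, a ferritin-like gene 921 kb upstream, rose by 1.98 (adjusted p = 0.000909 by edgeR), and Dmd, the dystrophin gene, Tab3 and Gk had log2 fold changes of -0.38, 0.21 and -0.48, not past the limits. In 2i/LIF, Dmd fell by 0.77 (adjusted p = 7.94e-06 by edgeR), and Tab3, Gk and Mageb4, the nearest of them at 54.3 kb, were not called. In −E and −N, 0 of 4 were called in either medium by edgeR or DESeq2, with at most 1 at an unadjusted p under 0.05. In −N that was Dmd, not past the fold limit in 2i/LIF (log2 fold change -0.55, adjusted p = 0.000688 by edgeR) and with an adjusted p of 0.0293 by edgeR in FCS/LIF (-0.42). Of the other tested genes of chromosome X, 108 of 565 rose (19.1%) and 27 fell (4.78%) in −E−N in FCS/LIF. In 2i/LIF, 110 of 524 rose (21%) and 33 fell (6.3%). Over all tested genes, 12.4% rose and 6.4% fell in FCS/LIF, and 9.06% rose and 9.56% fell in 2i/LIF. The X-linked genes had median log2 fold changes of 0.10 and 0.18, beside 0 and 0.0102 over all tested genes.

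Which genes were most like Nr0b1 over the groups depended on whether the measure counted size. By Pearson's r over the 8 group means of log2 CPM, among 11737 other genes that averaged 100 counts or more, the 10 most alike were Espl1, Dnajc6, Hnrnpl, Chchd10, Lifr, Fkbp4, Cbs, Kifc1, Trip12 and Hmces, with r between 0.961 and 0.988. The points share 4 states in each medium, and 96 genes had an r above 0.9. The measure takes no account of size. Espl1 (separase, which parts sister chromatids) had the highest r, with log2 fold changes of -0.27 and -0.29 in −E−N. Its likeness was absent in TPM, where its r over the 8 group means of log2(TPM + 1) was 0.0242. The others of the 10 had between 0.702 and 0.984 there. Dnajc6 (auxilin, which uncoats clathrin vesicles) was the nearest in size among the 10, with -3.13 in FCS/LIF and -3.88 in 2i/LIF. Chchd10, a mitochondrial protein, had -2.31 and -2.75 and Lifr, a subunit of the receptor for LIF, -1.45 and -1.32.

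By the distance over the 6 log2 fold changes against +E+N, which counts size, the nearest genes were Ly6a, St8sia1, Jam2, Inhbb and Slc15a1, at distances between 2.42 and 3.31. Ly6a (Sca-1, a surface protein) had FCS/LIF log2 fold changes of -3.12 (−E), -0.22 (−N) and -4.42 (−E−N), where Nr0b1 had -2.64, -0.49 and -5.86 in the same fit of 20 libraries. In 2i/LIF, Ly6a had -3.22, -1.02 and -5.22 and Nr0b1 -2.05, -1.32 and -6.65. St8sia1, a sialyltransferase of gangliosides, had -4.50 and -4.27 in −E−N, and Jam2, a junction protein, -4.86 and -3.97. Their departures from additivity in FCS/LIF were -1.07 for Ly6a, -0.89 for St8sia1 and -1.31 for Jam2, beside -2.72 for Nr0b1. Inhbb, a subunit of activin and inhibin, had the most negative log2 fold change of these genes in −E−N in 2i/LIF (-7.33), with a departure of -5.46 there and of 1.24 in FCS/LIF.

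**Figure D5:**
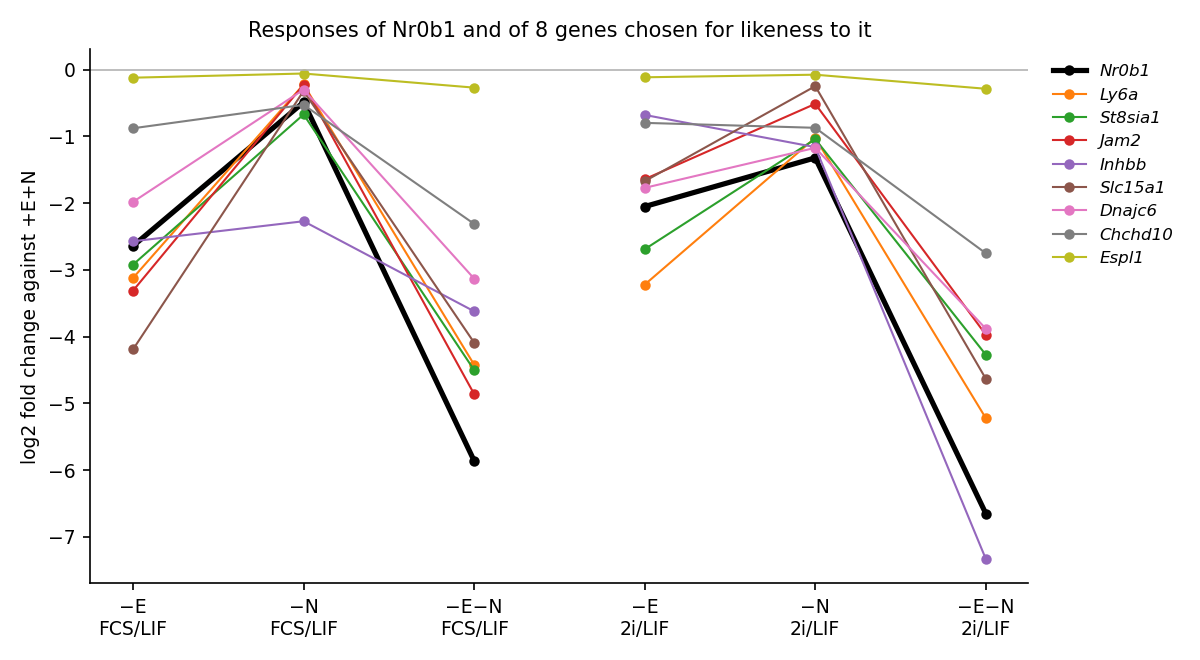
Log2 fold changes against +E+N in the 3 depleted states of each medium for Nr0b1 (thick black line), the 5 genes nearest to it over these folds, and 3 of the 10 with the highest r (Dnajc6, Chchd10 and Espl1). Nr0b1 has the lowest value in −E−N in FCS/LIF (-5.86), Inhbb in 2i/LIF (-7.33), and Espl1 stays near 0.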

How the data were processed

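RNA-seq of 20 libraries was used, and the ChIP-seq samples were not analysed here. Stranded poly-A libraries were sequenced from both ends and mapped by the authors to mm10 with STAR, and the estimated counts per gene and the TPM values that RSEM gave were deposited (versions are not given in the sources used here). Estimated counts were rounded. Of 54238 rows, 92 were ERCC spike-ins, at 0 counts in every library, and 54079 matched GENCODE vM21. Replicates differed by more than sampling noise (chi-square divided by its degrees of freedom, 4.28 to 28.3). The study describes the replicates as independent experiments, and p-values measure the spread between them.

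Within each medium, the 4 states were fitted with edgeR 4.0.16 (R 4.3.3, TMM, quasi-likelihood test, Benjamini-Hochberg adjustment), keeping genes that reached 20 counts in every replicate of some state. The media were compared in a fit of all 20 libraries. The SE of each edgeR log2 value is its absolute size divided by the square root of its quasi-likelihood F. Such SEs are uncertain for values near 0. CPM are counts over the library total scaled by TMM. Likeness used log2(CPM + 0.1). Genes were called at the limits of the study's methods (adjusted p under 0.01, fold over 1.5). In 2i/LIF, deviations of libraries with the same number from their state means correlated between every pair of states (0.325 to 0.525). The numbers may therefore pair the libraries, but the main fit had no block. Its SEs, adjusted p and calls ignore that pairing, and the replicate block was run as an alternative. The steps were also run on simulated counts, with the same dispersion for every gene and no pairing of libraries. That run does not give their error rates in these data.

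Nr0b1 and the gene lists were chosen with earlier results of these data known, and no list is independent evidence. A member of the lists is not reported here and was left out of their counts. Named were the members with the largest change in −E−N and those of counts of 5 or fewer. Alternatives were DESeq2 1.42.0, its size factors, other filters, the replicate block, other sets of samples, other limits, log2 TPM in limma 3.58.1 with 1 or 0.1 added, and leaving out each library. Using only the 2i/LIF libraries numbered 2 and 3 was chosen after seeing the data.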

Additional observations from a re-analysis of the deposited data

Results flagged for a closer look

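Each value below is the difference of a response between the media, FCS/LIF minus 2i/LIF on the log2 scale, in the fit of 20 libraries, for listed genes where that difference had an adjusted p under 0.01 (edgeR, adjusted over 16147 genes). Groups of 2 or 3 libraries were too small for a check of single samples that stand apart. The difference of Nr0b1 was not tested. In −E, it was -1.70 for Esrrb and -1.69 for Zfp42, both more reduced in FCS/LIF. In −N, it was -3.57 for Zscan4a, which was 1.06 lower than the control in FCS/LIF (log2 fold change -1.06) and 2.5 higher in 2i/LIF. In −E−N, it was -1.39 for Esrrb, -2.28 for Zfp42, -0.56 for Rif1 and -0.45 for Zfp281. It was 3.05 for Cyp11a1, which rose in FCS/LIF and fell in 2i/LIF. For the Zscan4 genes in −E−N it was -4.25 (Zscan4a), -4.08 (Zscan4b), -3.98 (Zscan4c), -3.45 (Zscan4d), -4.30 (Zscan4e) and -3.87 (Zscan4f). Medium and culture batch cannot be told apart here.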

How the results depend on the processing

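The level pattern of Nr0b1 held its direction in each alternative on the log scale. Of its fold changes, 84 of 95 values under other settings moved by less than 1 SD between replicates, and 95 of 100 did so when 1 library was left out. The alternatives that moved it most were those that compress low values. With limma on log2(TPM + 1), the FCS/LIF values were -2.38 (−E), -4.50 (−E−N), -4.06 (−E−N against −N), -2.12 (−E−N against −E) and -1.68 (departure). The 2i/LIF values there were -4.33 (−E−N), -3.11 (against −N), -2.37 (against −E) and -1.16 (departure). With log2(TPM + 0.1), FCS/LIF gave -5.53, -5.08 and -3.00 for −E−N against +E+N, −N and −E. On the linear CPM scale the departure turned to 8.04 and 12.1 CPM, by its construction. With the 2i/LIF libraries numbered 2 and 3 only, −E−N against −N was -6.10. The differences between media were the least stable. With log2(TPM + 1), the double loss turned to -0.17 and the departure to -0.52, while −E−N against −N and −E gave -0.94 and 0.25. With a replicate block within medium, −E−N against −N turned to 0.021.

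Leaving out 1 library gave these ranges of Nr0b1. In FCS/LIF, −N ranged from -0.69 to -0.34, −E−N against −N from -5.54 to -5.19 and the departure from -2.89 to -2.53. In 2i/LIF, −E−N ranged from -7.41 to -6.36, against −N from -6.08 to -5.04, against −E from -5.36 to -4.10, and the departure from -4.04 to -2.78. Between media, −E ranged from -0.86 to -0.10, −E−N ranged from 0.48 to 1.57, against −N from -0.33 to 0.73, against −E from 0.89 to 2.16 and the departure from 0.056 to 1.32, the one against −N turning to 0.15 without −N replicate 1 of FCS/LIF and to 0.73 without −E−N replicate 1 of 2i/LIF.

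Of the listed genes, 4, 0, 9 and 1 were called in FCS/LIF (−E, −N, −E−N, departure) and 0, 2, 13 and 0 in 2i/LIF. DESeq2 called 7 (−E), 1 (−N) and 3 (departure) in FCS/LIF and 6 (−N) and 3 (departure) in 2i/LIF. With every gene of at least 1 count, the counts were 10, 5 and 3 for the same comparisons in FCS/LIF and 6 and 3 in 2i/LIF. The replicate block gave 9 (−E, 5 of them Zscan4 genes) and 2 (departure) in FCS/LIF and 4 (−E), 6 (−N) and 3 (departure) in 2i/LIF. In FCS/LIF the correlations of deviations ranged from 0.0988 to 0.494, over 0.1 for 5 of 6 pairs of states. With only 2 numbers, they do not settle whether the libraries are paired, and the main fit had no block there either. One fit of 20 libraries gave 0 (FCS/LIF departure), 6 (2i/LIF −N) and 3 (2i/LIF departure). With limma, 5 were called in −E−N of FCS/LIF with either pseudocount, 0 for the departure with 1, and 0 or 1 in −N of 2i/LIF. An adjusted p under 0.05 gave 9 (FCS/LIF −E), 6 (2i/LIF −N) and 3 (2i/LIF departure), and the 2i/LIF libraries numbered 2 and 3 gave 0 (−N) and 1 (departure). Leaving out 1 library, the departure in FCS/LIF had 0 to 1 calls, −N in 2i/LIF 0 to 5 (0 without +E+N or −N replicate 2 or 3, 1 without −E replicate 2, and 5 without −E−N replicate 3), and the departure there 0 to 2 (2 without −N replicate 1). No call of a listed gene turned its direction. Of the 10 genes most like Nr0b1, 6 were shared with r over 20 libraries, 4 with Spearman's rho, 3 with r over TPM and 1 with the distance. Scaling to the ERCC spike-ins was not run, since their counts were 0. The causes of these changes were not tested.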
